A study of Sus scrofa with 12 samples.

Results

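Cell cycle and DNA replication genes were followed in pig fat cells and pig ovarian granulosa cells before and after culture. They were chosen by gene symbol alone: cyclins, cyclin-dependent kinases (CDKs) and their inhibitors, CDC genes, MCM helicase and GINS subunits, replicative polymerases and primase, clamp loaders, ribonucleotide reductase, thymidylate synthase, topoisomerase TOP2A, PCNA, centromere proteins, kinesins, Aurora and Polo-like kinases, and a few mitotic genes by name. The choice gave 90 genes of the 6765 named genes on the array, read by 128 of its 23999 probe sets, and each gene was represented by its probe set with the highest mean over the 12 arrays. By known function, 54 of the genes were listed under core roles in the cycle or in replication, and 36 under other roles. The 36 are other CDKs and CDK-associated proteins, other Polo-like kinases, transport kinesins, and genes matched by symbol only, such as CDC42 effectors. The split is not strict, as CDK7 and CDK2AP1, which act on CDKs, and KIF2A, which acts on microtubule ends, are among the 36. CDK1, CDK4, CCND1 and CCNE1 are not among the 90, and CDK6 carried a doubled symbol and was left out.

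RNA was measured on the Affymetrix porcine genome array, on which a probe set of short oligonucleotides reads 1 transcript. There were 4 groups of 3 arrays. MA are mature adipocytes taken from fat tissue, and GC are granulosa cells, the hormone-making cells of ovarian follicles. DFAT are the cells that MA gave in ceiling culture, where floating fat cells attach to the top of a flask, lose their lipid and divide, and DFOG are the cells that GC gave in culture. Both cultured groups were collected at semiconfluence, so each contrast of cultured with isolated cells also sets growing cultures against cells from tissue. The labels call the 3 arrays of each group biological replicates, but name no strain, age or drug and no animals. A p-value here thus reflects only the spread among these arrays, some of which may be technical.

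All values are log2 expression levels as deposited, made by robust multi-array averaging (RMA). DFOG replicates 2 and 3 were nearly identical: their log2 differences over all probe sets had an SD of 0.07, and those of the 11 remaining within-group pairs of arrays had SDs of 0.31 to 0.62. Although labelled as separate biological replicates, they were averaged to 1 sample, so that DFOG has n = 2 and the other groups n = 3. Leaving out DFOG 1, or DFOG 2 and 3 together, thus left DFOG with 1 sample. A call lost in either setting below comes with that loss of samples and does not single out an array. The 3′ minus 5′ signal of the actin control, which is larger where RNA is shorter, was 1.88 ± 0.52 (SD) in MA, 0.61 ± 0.33 in DFAT, 1.35 ± 0.55 in GC and 0.39 ± 0.33 in DFOG. A gene was called when its limma p-value, adjusted over all 23999 probe sets, was under 0.05. Levels are given as mean ± SD over samples. With no detection calls in the table, low levels and background are not separable.

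The isolated cells carried most of the defining markers of their labels. The summed signal of the 4 measured adipocyte markers of 7 listed lay between 15.2 and 15.4 in MA, 9.33 and 10.8 in DFAT, and 7.32 and 7.45 in GC. That of 6 granulosa markers lay between 15.1 and 15.4 in GC and between 7.73 and 8.68 in the other groups, although the granulosa genes CYP19A1 (4.95 ± 0.15 in GC) and FOXL2 (5.56 ± 0.15 in GC) were no higher in GC than elsewhere. The summed signal of 7 macrophage markers was 8.91 to 9.98 in MA and 7.36 to 7.64 in DFAT, and that of 5 endothelial markers was 8.85 to 9.73 in MA and 7.88 to 8.16 in DFAT. The 4 measured mesenchymal markers of 5 listed moved with the core genes in fat cells, with a summed signal of 9.67 to 10.04 in MA and 13.47 to 13.76 in DFAT, and it was also higher in DFOG (11.32 to 12.01) than in GC (7.93 to 8.41). The part of other or changed cell types in the results below was not tested.

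As background, a cell that divides passes through G1, S, G2 and mitosis. Cyclins switch CDKs on at each step, CDK inhibitors hold them back, MCM helicases are loaded at origins in G1 and fire in S phase, and a wave of mitotic genes is then transcribed in G2. Mature adipocytes are largely non-dividing cells, while granulosa cells divide in growing follicles and stop when they become luteal cells.

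Core cell cycle genes were lowest in MA, higher in DFAT and high in both GC and DFOG. Of the 90 genes, 33 rose from MA to DFAT and 7 fell. Over all probe sets, 15.7% were higher and 16.4% were lower in DFAT. From GC to DFOG, 10 of the 90 rose and 13 fell, where 12.3% of all probe sets were higher and 12.6% lower. Over the 6765 named genes, each read by its brightest probe set as the 90 were, 20.7% were higher and 20.4% lower in DFAT than MA. In DFOG against GC the named genes gave 17.3% and 13.4%. The calls lay mostly in the 54 core genes in fat cells, with 26 rising and 2 falling and a median log2 change of 0.90, while in granulosa cells 3 of the 54 rose and 8 fell, with a median of -0.45. Over all probe sets the corresponding medians were -0.07 and -0.02. In bulk RNA, fewer dividing cells and less of these RNAs per cell cannot be told apart.

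**Figure D1:**
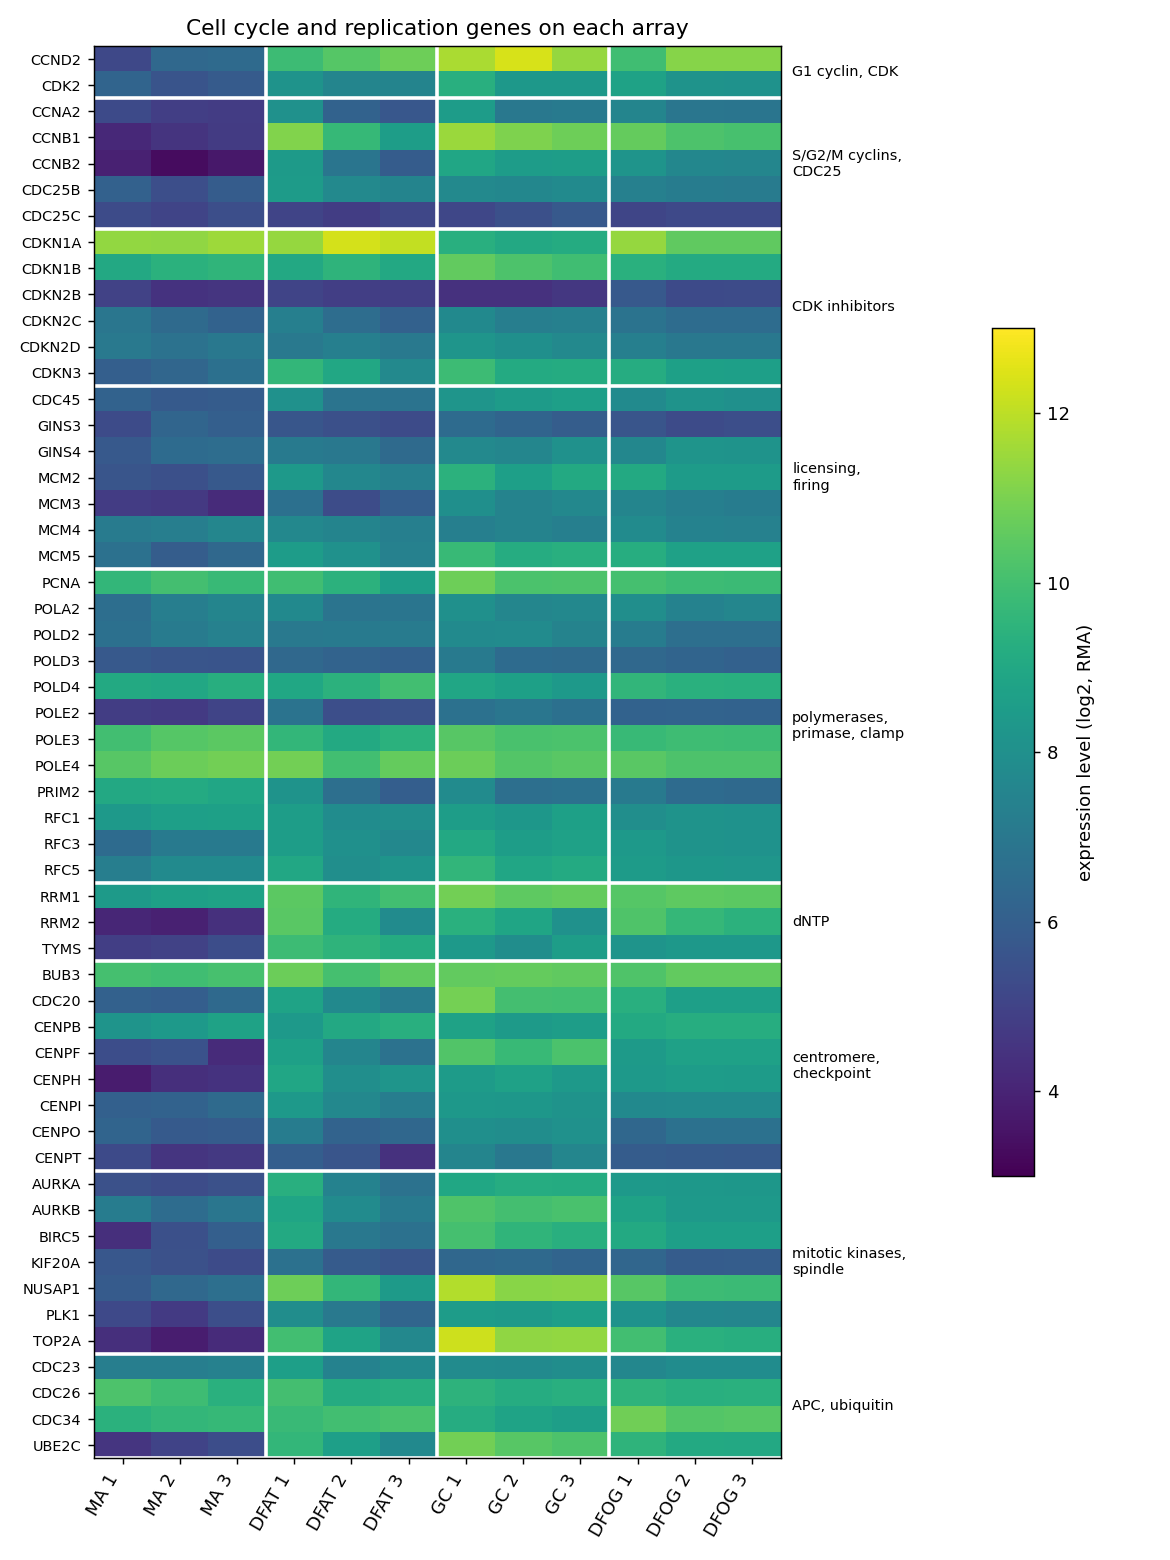
Expression level (log2, RMA; colour) of the 54 core cell cycle and replication genes (rows, grouped by role) on each of the 12 arrays (columns, grouped as MA, DFAT, GC and DFOG). Most rows are dark in MA and lighter in the other groups; the CDK inhibitor CDKN1A is lightest in fat cells and the primase subunit PRIM2 in MA.

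The median level of the 54 core genes was 6.11, 6.22 and 6.40 on the 3 MA arrays and 8.57, 7.69 and 7.37 on the 3 DFAT arrays. It was 8.92, 8.55 and 8.58 on the GC arrays and 8.39, 8.33 and 8.26 on the DFOG arrays. MA lay below every other array, DFAT spread over more than a log2 unit, and GC lay above DFOG. The 36 genes of other roles showed no such order, with medians of 8.40 to 8.70 in MA, 8.63 to 8.73 in DFAT, 8.59 to 8.74 in GC and 8.65 to 8.95 in DFOG.

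**Figure D2:**
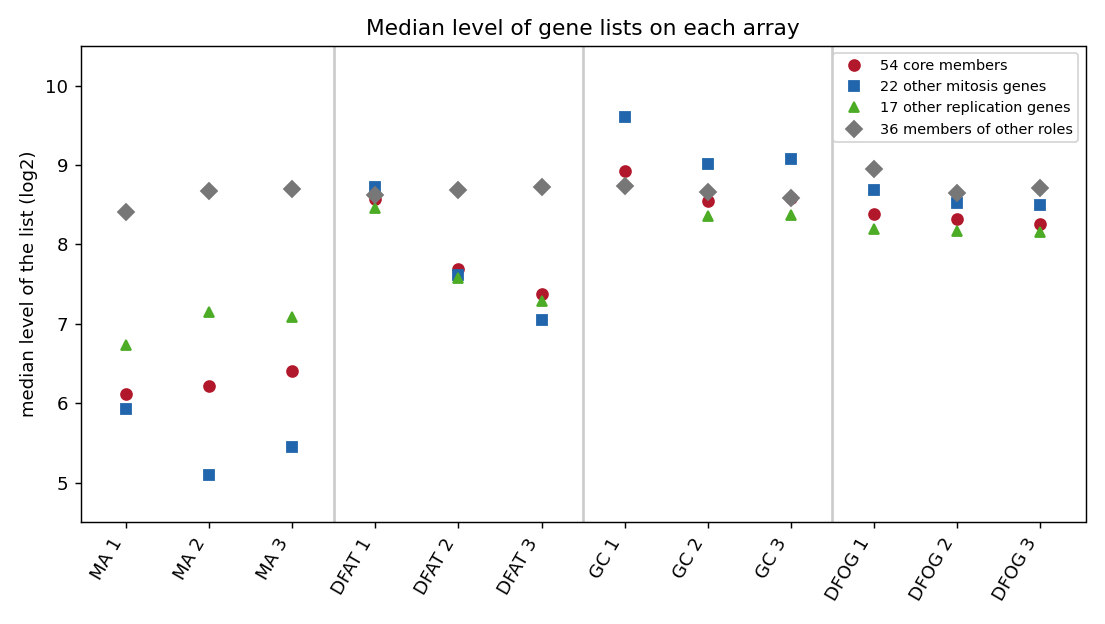
Median level (log2) of 4 gene lists on each array: the 54 core genes, the 36 genes of other roles, and 22 mitosis and 17 replication genes not chosen by symbol. The core, mitosis and replication lists are lowest on the MA arrays and spread widely over the DFAT arrays, while the 36 other genes stay between 8.40 and 8.95.

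The 3 DFAT arrays differed from each other in one direction. DFAT 1 was the highest of the 3 for 45 of the 54 core genes and for 25 of the 26 that rose from MA, and DFAT 3 was the lowest for 32 and 21 of them. CCNB2 lay at 8.46, 6.87 and 5.92 on the 3 arrays. AURKA lay at 9.32, 7.42 and 6.78. The core median on DFAT 1, 8.57, lay within the range of the GC arrays. CCND2, with 9.84, 10.35 and 10.79, was instead lowest on DFAT 1. Without DFAT 1, 35 of the 90 genes were higher and 8 lower in DFAT than in MA, and the shares of all probe sets were not counted there.

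The counts by role that follow stand beside 15.7% higher and 16.4% lower over all probe sets in fat cells. In granulosa cells the shares of all probe sets were 12.3% and 12.6%. The first group by role holds the G1 cyclins and their kinases, which take a cell from rest towards S phase. Both measured genes rose from MA to DFAT. CCND2, a D-type cyclin that growth factors and, in granulosa cells, FSH induce, lay at 5.18, 6.37 and 6.45 in MA and 9.84, 10.35 and 10.79 in DFAT. The groups did not overlap, and the change was 4.33 ± 0.43 (SE, limma adjusted p = 1.66e-05), a 20-fold rise. In GC it lay at 11.72, 12.41 and 11.40 and in DFOG at 9.94, 11.20 and 11.19, so that GC was above DFOG on every array, but the change of -1.27 ± 0.48 (SE, limma adjusted p = 0.0805) did not pass the test. With the replicate number as a block it did, at -1.13 (limma adjusted p = 0.0394). CDK2, the kinase that cyclins E and A activate, rose in fat cells from 5.90 ± 0.30 to 7.73 ± 0.36, by 1.84 ± 0.31 (SE, limma adjusted p = 0.000746). Its 2 dimmer probe sets gave 0.36 and 0.49 and were not called.

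The cyclins of S phase, G2 and mitosis and the CDC25 phosphatases, which remove the brake from CDK1, had 4 of 5 genes rise in fat cells and none called in granulosa cells. CCNB1, cyclin B1, lay at 4.16, 4.51 and 4.75 in MA and 11.10, 9.70 and 8.58 in DFAT. The lowest DFAT array was well above the highest MA array, and the rise of 5.31 ± 0.49 (SE, limma adjusted p = 9.35e-06) was the largest of all 90 genes, 39.8-fold. It lay at 11.49, 11.07 and 10.81 in GC and 10.63, 10.20 and 10.07 in DFOG, a change of -0.74 ± 0.55 (SE, limma adjusted p = 0.406). CCNB2 rose by 3.45 ± 0.49 (SE, limma adjusted p = 0.000246) and CDC25B by 2.10 ± 0.25 (SE, limma adjusted p = 7.4e-05). CCNA2, cyclin A, rose by 1.67 ± 0.56 (SE, limma adjusted p = 0.042), a call lost without DFAT 1 and without any 1 of the 3 MA arrays. CDC25C stayed between 4.81 and 5.79 on all arrays, with a change of -0.26 ± 0.19 in fat cells that was not called.

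**Figure D3:**
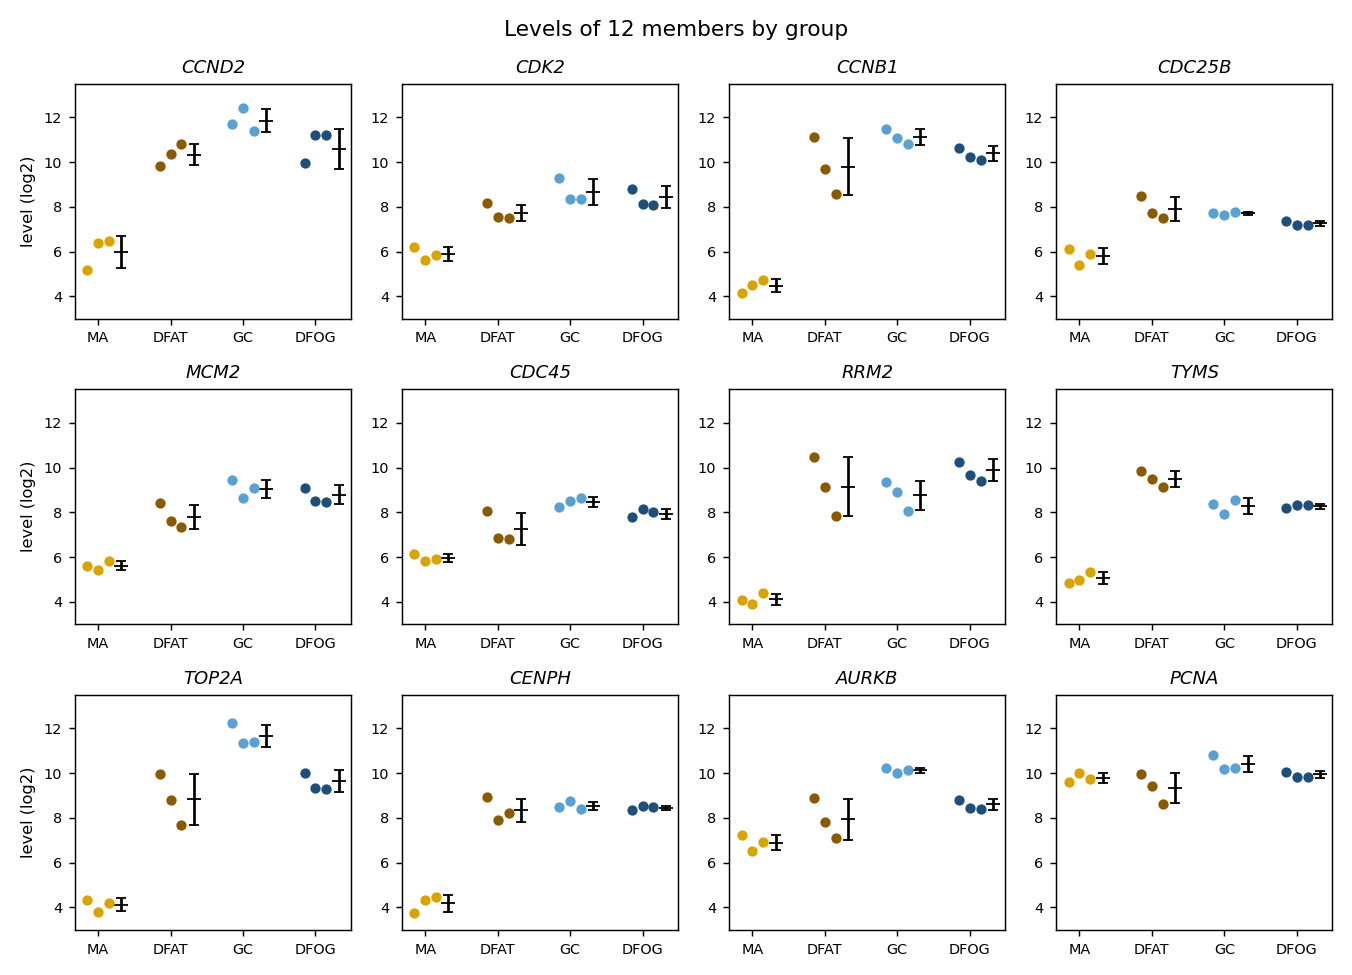
Level (log2) of 12 genes on each array by group; points are arrays in replicate order, and the bar beside them is mean ± SD over samples (n = 3; n = 2 in DFOG, where replicates 2 and 3 were averaged). For 11 of the 12 genes the MA mean is the lowest of the 4, and PCNA has its lowest mean in DFAT.

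CDK inhibitors restrain the kinases, and in fat cells 1 of 6 rose (16.7%, near the 15.7% of all probe sets) and none fell. That gene was CDKN3, a phosphatase that acts on CDKs, and it lay at 6.03, 6.30 and 6.71 in MA and 9.62, 8.99 and 7.71 in DFAT, a rise of 2.42 ± 0.42 (SE, limma adjusted p = 0.000961). CDKN1A, the p53 target p21, lay at 11.38, 11.35 and 11.52 in MA and 11.43, 12.35 and 12.08 in DFAT. The groups overlapped and the difference of 0.54 ± 0.26 (SE, limma adjusted p = 0.15) did not pass. All MA and DFAT arrays lay above all GC arrays. The others differed by -0.13 ± 0.22 for CDKN1B (p27), 0.26 ± 0.19 for CDKN2B (p15), 0.15 ± 0.30 for CDKN2C (p18) and 0.20 ± 0.18 for CDKN2D (p19), and none was called.

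In granulosa cells 4 of the 6 inhibitors changed, 2 in each direction (33.3% each way, against 12.3% and 12.6% of all probe sets). CDKN1A lay at 9.29, 9.03 and 9.15 in GC and 11.41, 10.54 and 10.56 in DFOG, with no overlap, a rise of 1.82 ± 0.29 (SE, limma adjusted p = 0.000818) or 3.54-fold. CDKN2B rose from 4.49 ± 0.11 to 5.53 ± 0.39, by 1.04 ± 0.21 (SE, limma adjusted p = 0.00415), a call lost without DFOG 1 and with poly-A centring (0.24), in which each array is set to its spiked poly-A control RNAs. CDKN1B, which lay at 10.60, 10.20 and 9.94 in GC and 9.35, 9.13 and 9.11 in DFOG, fell by 1.01 ± 0.24 on its brightest probe set (limma adjusted p = 0.0103), while its 2 dim probe sets gave -0.30 and -0.02. CDKN2D fell by 0.81 ± 0.20 (limma adjusted p = 0.0126). Both falls lost their call without DFOG replicates 2 and 3. CDKN2C and CDKN3 differed by -0.79 ± 0.33 and -0.46 ± 0.47 and were not called, although CDKN2C passed with the replicate block (-0.89, limma adjusted p = 0.0141).

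**Figure D4:**
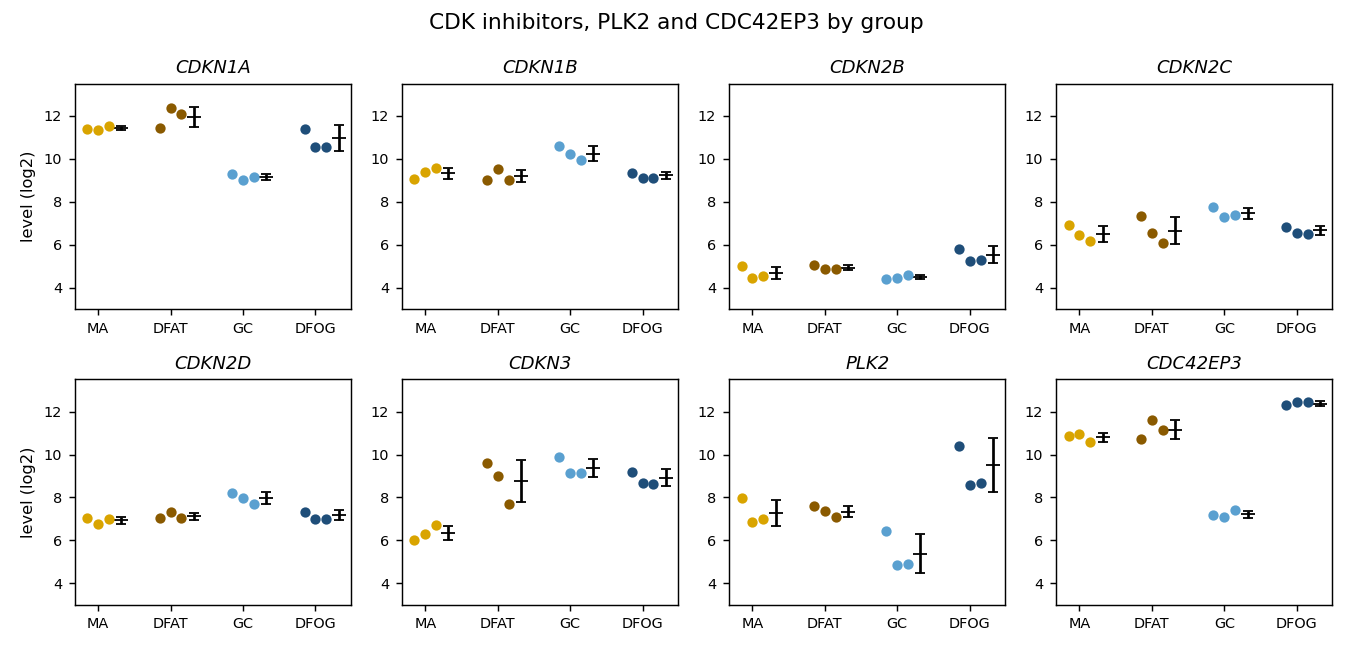
Level (log2) of the 6 measured CDK inhibitors, PLK2 and CDC42EP3 on each array by group; points are arrays in replicate order and the bar beside them is mean ± SD over samples (n = 3; n = 2 in DFOG). CDKN1A, PLK2 and CDC42EP3 are lowest in GC, whereas CDKN3 is lowest in MA.

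Origin licensing and firing genes rose in fat cells in 4 of 7 cases. MCM2, a subunit of the MCM helicase that unwinds DNA, lay at 5.63, 5.43 and 5.81 in MA and 8.40, 7.63 and 7.36 in DFAT, a rise of 2.18 ± 0.29 (SE, limma adjusted p = 0.000151). MCM5 rose by 1.63 ± 0.30 and MCM3 by 1.45 ± 0.30. CDC45, which joins the helicase when an origin fires, rose by 1.27 ± 0.30 (SE, limma adjusted p = 0.00668). Thus 3 of the 4 MCM genes rose, and MCM4 (0.15 ± 0.17) did not pass. Its second, dimmer probe set gave 1.30, also not called, and the dimmer probe sets of MCM2 (0.50 and 0.23) and MCM5 (0.67 and 0.94) were not called. GINS3 (-0.40 ± 0.25) and GINS4 (0.58 ± 0.26), subunits of the GINS complex, did not pass. In granulosa cells none of the 7 was called, with changes from -0.73 to 0.25.

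Of 12 DNA polymerase, primase, sliding clamp and clamp loader genes, 2 rose and 2 fell in fat cells, with a median of 0.01. That is 16.7% each way, near the 15.7% and 16.4% of all probe sets. PRIM2, the large subunit of the primase that starts new DNA strands, lay at 9.03, 9.12 and 8.92 in MA and 8.14, 6.67 and 5.999 in DFAT. It fell by 2.09 ± 0.48 (SE, limma adjusted p = 0.00584), 4.25-fold, the largest fall of the 90 genes. POLE3, a histone-fold subunit of polymerase epsilon, fell by 0.91 ± 0.19 (limma adjusted p = 0.00292), a call lost with poly-A centring (-0.24). The clamp loader subunit RFC3 rose by 1.20 ± 0.25 (limma adjusted p = 0.00309) and POLE2, another subunit of polymerase epsilon, rose by 1.04 ± 0.31 (limma adjusted p = 0.0237), in both cases with a second probe set that was also called (1.07 and 1.20).

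PCNA, the clamp that holds polymerases on DNA and a common marker of cycling cells, was not called in either cell type. It lay at 9.60, 10.005 and 9.72 in MA, 9.95, 9.41 and 8.62 in DFAT, 10.81, 10.17 and 10.22 in GC and 10.04, 9.85 and 9.82 in DFOG. MA and DFAT overlapped, and the change was -0.45 ± 0.30 (SE, limma adjusted p = 0.303), with a 95% interval of -1.12 to 0.21. In contrast with most mitotic genes, PCNA was no lower in MA than in DFAT. In granulosa cells, 1 of the 12 genes of this group changed. The polymerase delta subunit POLD2 fell by 0.76 ± 0.24 (SE, limma adjusted p = 0.0373), a call lost in 7 of 22 other settings, among them without GC 1 or GC 2 and with the replicate block (limma adjusted p = 0.0641).

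Deoxynucleotide synthesis supplies the building blocks of replication, and all 3 of its genes rose in fat cells. RRM2, the subunit of ribonucleotide reductase that is made in S phase, lay at 4.08, 3.90 and 4.39 in MA and 10.45, 9.14 and 7.84 in DFAT. TYMS, which makes thymidylate, lay at 4.84, 4.99 and 5.34 and 9.85, 9.49 and 9.14. No array of the one group reached the other for either gene, with limma adjusted p = 3.23e-05 for RRM2 and 1.37e-07 for TYMS. RRM1, the other reductase subunit, rose by 1.37 ± 0.22 (SE, limma adjusted p = 0.000633). In granulosa cells RRM2 lay at 9.35, 8.89 and 8.07 in GC and 10.24, 9.65 and 9.41 in DFOG. All DFOG arrays were above all GC arrays, but the change of 1.11 ± 0.61 (SE, limma adjusted p = 0.236) did not pass. The second, dim probe set of TYMS gave -0.05 in fat cells.

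Centromere and spindle checkpoint genes rose in fat cells in 4 of 8 cases. CENPH, a subunit of the inner kinetochore that ties chromosomes to the spindle, lay at 3.75, 4.33 and 4.46 in MA and 8.92, 7.92 and 8.20 in DFAT, a rise of 4.17 ± 0.26 (SE, limma adjusted p = 5.41e-07). In GC and DFOG it lay at 8.47, 8.73 and 8.40 and 8.36, 8.55 and 8.48, levels that overlapped with DFAT. CENPF, a kinetochore protein made in G2, rose by 2.62 ± 0.45 (SE, limma adjusted p = 0.000861), CENPI by 1.53 ± 0.25 and CDC20, the activator of the anaphase-promoting complex, by 1.72 ± 0.39. CENPB, which binds centromeric DNA (0.46 ± 0.24), and the checkpoint protein BUB3 (0.43 ± 0.19) were not called.

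In granulosa cells 3 of the 8 fell. CENPO lay at 7.97, 7.90 and 8.07 in GC and 6.34, 6.73 and 6.71 in DFOG, a change of -1.45 ± 0.27 (SE, limma adjusted p = 0.00238) that was called in all 22 other settings. CENPT fell by 1.52 ± 0.40 (SE, limma adjusted p = 0.0165). CDC20 fell by 1.33 ± 0.44 (SE, limma adjusted p = 0.0461). Without DFOG 1 neither CENPT nor CDC20 was called, and CDC20 lost its call in 9 of 22 settings. CDC20 rose in fat cells and fell in granulosa cells.

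Mitotic kinases, chromosome passengers and spindle genes rose in fat cells in 5 of 7 cases. TOP2A, which untangles sister chromatids, lay at 4.34, 3.82 and 4.22 in MA and 9.97, 8.81 and 7.69 in DFAT. It lay at 12.24, 11.33 and 11.39 in GC and 9.99, 9.33 and 9.28 in DFOG. The order GC, DFOG, DFAT and MA held for the means, with DFAT and DFOG overlapping, and TOP2A fell by 2.01 ± 0.54 (SE, limma adjusted p = 0.0175) from GC to DFOG, a call lost without DFOG 2 and 3. NUSAP1, which bundles spindle microtubules, rose in fat cells by 3.32 ± 0.48 (SE, limma adjusted p = 0.00026). AURKA rose by 2.40 ± 0.48, the passenger protein BIRC5 (survivin) by 2.33 ± 0.57 and the kinase PLK1 by 1.96 ± 0.35.

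AURKB, the kinase of the chromosome passenger complex, lay at 7.22, 6.52 and 6.94 in MA and 8.89, 7.82 and 7.09 in DFAT. The groups overlapped on 1 array and the change of 1.04 ± 0.37 (SE, limma adjusted p = 0.0512) narrowly missed the threshold, which it passed with the replicate block (limma adjusted p = 0.0242). In granulosa cells AURKB lay at 10.23, 10.01 and 10.13 in GC and 8.78, 8.43 and 8.41 in DFOG, without overlap. It fell by 1.53 ± 0.41 (SE, limma adjusted p = 0.0184), a call lost without DFOG 1. KIF20A, a kinesin of cytokinesis, differed by 0.60 ± 0.26 in fat cells and -0.22 ± 0.29 in granulosa cells and was called in neither.

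Of the 4 genes of the anaphase-promoting complex and ubiquitin transfer, UBE2C rose in fat cells and CDC34 rose in granulosa cells. UBE2C, the ubiquitin-conjugating enzyme that works with that complex, lay at 4.55, 4.995 and 5.34 in MA and 9.63, 8.64 and 7.74 in DFAT, a rise of 3.71 ± 0.40 (SE, limma adjusted p = 3.27e-05), while its dim second probe set gave -0.19. CDC34, which serves the SCF ligase, lay at 9.19, 8.81 and 8.60 in GC and 10.83, 10.33 and 10.40 in DFOG, a rise of 1.73 ± 0.22 (SE, limma adjusted p = 0.000174). The complex subunits CDC23 and CDC26 were called in neither cell type.

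The actin control differed between MA and DFAT, and the fat cell calls were repeated with it as a covariate, which left 17 genes higher and 8 lower. The share of all probe sets called with the covariate was not counted, so the drop may not be particular to these genes. Every MA array lay above every DFAT array on this control, and every GC array above every DFOG array. The fit thus cannot well separate the covariate from the contrast, and estimates with it are less precise. Whether a lost call reflects shorter RNA or only this lower precision was not tested. Of the 33 that rose, 16 kept their call, and those that lost it were CDK2, CCNA2, CDKN3, MCM3, MCM5, RFC3, POLE2, CENPI, CDC20, AURKA, BIRC5, PLK1, CCNB1IP1, CDC42SE1, CDK16, CDK2AP1 and KIF2A. Their changes kept their sign, from 0.18 (CCNB1IP1) to 2.21 (AURKA), and the median of the 54 core genes was 0.68 with the covariate against 0.90 without. Of the 7 falls, KIF21A (-1.48) and CDC37L1 (-0.60) lost their call, and 3 other genes gained one. With each array centred on its poly-A spike controls instead of RMA's common distribution, the median of all probe sets itself moved to 0.60 for DFAT minus MA and to -0.82 for DFOG minus GC. The median of the 54 core genes was then 0.97 above that of all probe sets in fat cells and changed by -0.43 relative to it in granulosa cells. That centring gave 57 of the 90 genes higher and 2 lower in DFAT than MA, and 5 higher and 56 lower in DFOG than GC. Of all 23999 probe sets it gave 7296 higher and 1300 lower in DFAT than MA. In DFOG against GC it gave 1049 higher and 9622 lower. The median of all probe sets moved to 1.42 for the difference between the changes, 0.09 for DFAT minus DFOG and -1.32 for MA minus GC.

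The 36 genes of other roles had 7 rise and 5 fall in fat cells and 7 rise and 5 fall in granulosa cells, that is 19.4% and 13.9% in each. All probe sets gave 15.7% and 16.4% in fat cells and 12.3% and 12.6% in granulosa cells. The 6765 named genes gave 20.7% and 20.4% in fat cells and 17.3% and 13.4% in granulosa cells, so the share of rises was near theirs. The largest change among the 36 was that of CDC42EP3, an effector of the small GTPase CDC42 that shapes septin and actin filaments. It lay at 7.19, 7.08 and 7.40 in GC and 12.29, 12.45 and 12.44 in DFOG, a rise of 5.15 ± 0.24 (SE, limma adjusted p = 1.06e-07) or 35.4-fold, and its second probe set gave 4.78. Fat cells held it at 10.81 ± 0.21 in MA and 11.15 ± 0.44 in DFAT. PLK2, a Polo-like kinase whose transcription responds to growth signals and stress, lay at 6.43, 4.84 and 4.89 in GC and 10.40, 8.59 and 8.69 in DFOG and rose by 4.13 ± 0.57 (SE, limma adjusted p = 0.000301). Replicate 1 was the highest PLK2 array in both groups.

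Further rises in granulosa cells were those of the CDC42 effectors CDC42EP5 (3.88 ± 0.32) and CDC42EP1 (1.36 ± 0.19), CDK2AP1 (1.38 ± 0.18), an inhibitor of CDK2, CDC42SE1 (0.995 ± 0.26) and CDC42 itself (0.91 ± 0.21). With poly-A centring, CDC42EP5 kept its call and CDC42EP1 (0.55), CDK2AP1 (0.57), CDC42SE1 (0.19) and CDC42 (0.11) lost theirs. KIF21A, a motor that carries cargo along microtubules, lay at 9.90, 9.96 and 9.59 in GC and 6.004, 6.50 and 6.49 in DFOG and fell by 3.57 ± 0.48 (SE, limma adjusted p = 0.000237). In fat cells, too, it fell by 2.07 ± 0.43 (SE, limma adjusted p = 0.00309). The other falls in granulosa cells were those of KIF3A, a motor of ciliary transport (-0.998 ± 0.31), CDKN2AIP (-0.92 ± 0.24), CDK10 (-0.91 ± 0.21) and POLDIP2 (-0.69 ± 0.21). KIF3A lost its call with the replicate block (limma adjusted p = 0.0566). In fat cells KIF3A differed by 0.77 ± 0.27 and was not called on its brightest probe set, whereas its 3 dimmer ones were called higher (0.78, 0.83 and 0.83).

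In fat cells CDC42EP5 lay at 6.62, 7.07 and 7.56 in MA and 9.74, 9.37 and 10.36 in DFAT and rose by 2.74 ± 0.28 (SE, limma adjusted p = 2.19e-05). CDC42SE1 rose by 1.48 ± 0.23, KIF2A, which removes tubulin from microtubule ends, by 1.31 ± 0.25, the CDC42-binding kinase CDC42BPA by 1.14 ± 0.20, CDK16 by 0.99 ± 0.24, CDK2AP1 by 0.94 ± 0.16 and CCNB1IP1 by 0.63 ± 0.21. Falls were found for CDK2AP2 (-0.80 ± 0.18), POLDIP2 (-0.78 ± 0.19) and CDC37L1 (-0.76 ± 0.14). CDK9, the kinase that releases paused RNA polymerase II, was called lower, at -0.62 ± 0.18, but was 0.047 higher with poly-A centring of the arrays. Under that centring CDK2AP2 (-0.13), POLDIP2 (-0.12) and CDC37L1 (-0.094) lost their calls too, so that PRIM2 and KIF21A were the 2 of the 7 falls that kept theirs.

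Calls in the same direction in both cell types were no more frequent among the 90 genes than over all probe sets, and the 2 comparisons share no sample. CDC42EP5, CDC42SE1 and CDK2AP1 rose in both, 9.09% of the 33 that rose in fat cells and 30.0% of the 10 that rose in granulosa cells. KIF21A and POLDIP2 fell in both, 28.6% of 7 and 15.4% of 13. CDC20 and TOP2A rose in fat cells and fell in granulosa cells, and no gene did the reverse. Of the 90 genes 3.33% were higher in both, 2.22% lower in both and 2.22% higher in fat cells and lower in granulosa cells, where the shares of all probe sets were 5.91%, 4.04% and 1.44%. The 34 genes called in neither were 37.8%, against 56.0% of all probe sets. All probe sets were called less often than named genes, 32.1% against 41.1% in fat cells and 24.9% against 30.6% in granulosa cells. None of the 5 genes called in the same direction in both is among the 54 listed under core roles, although CDK2AP1 is an inhibitor of CDK2. Of these 5, CDC42EP5 kept both calls with poly-A centring and with the actin covariate. CDC42SE1 and CDK2AP1 lost the granulosa cell call under the first and the fat cell call under the second, CDC42SE1 its granulosa cell call there too, POLDIP2 lost its fat cell call under the first, and KIF21A lost its fat cell call under the second.

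**Figure D5:**
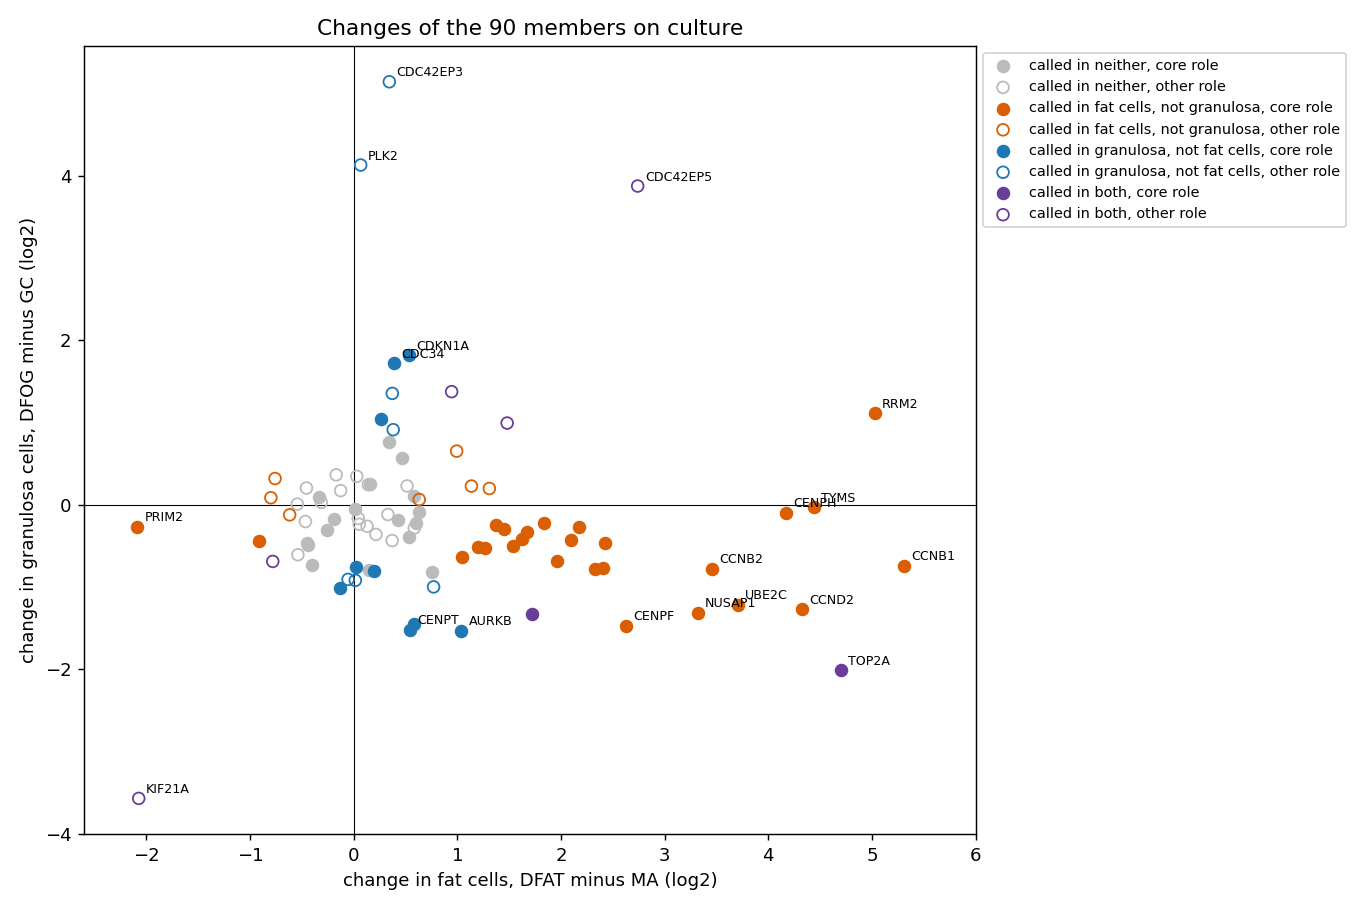
Log2 change from MA to DFAT (x axis) against log2 change from GC to DFOG (y axis) for the 90 genes; filled points have core roles, open points other roles, and colour shows where a gene was called. Most called core genes lie to the right at a y value a little below 0, from CCNB1 at 5.31 on the x axis to TOP2A at -2.01 on the y axis.

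The difference between the changes, that in fat cells minus that in granulosa cells, was tested directly. It was called above 0 for 32 of the 90 genes and below 0 for 7, where 11.6% of all probe sets were above and 11.7% below. Of the named genes, 13.2% were above and 15.9% below. Of the 54 core genes 31 were above 0 and 2 below, with a median of 1.69, against -0.05 over all probe sets. The largest were TOP2A at 6.71 ± 0.72 (SE, limma adjusted p = 6.52e-05), CCNB1 at 6.05 ± 0.74 (SE, limma adjusted p = 0.000152) and CCND2 at 5.60 ± 0.65 (SE, limma adjusted p = 0.000106). UBE2C (4.92), NUSAP1 (4.63), TYMS (4.46), CENPH (4.26) and CCNB2 (4.23) followed. All these rose in fat cells, while in granulosa cells their changes ranged from -2.01 to -0.03. CDC42EP3 was at -4.80 ± 0.33 (SE, limma adjusted p = 2.59e-06) and PLK2 at -4.07 ± 0.77 (SE, limma adjusted p = 0.00284). The other 5 below 0, CDC34 (-1.34), CDKN1A (-1.29), CDC37L1 (-1.08), CDC42EP1 (-0.98) and CDK2AP2 (-0.89), turned to above 0 with poly-A centring of the arrays, and CDKN1A was not called with the replicate block (limma adjusted p = 0.058).

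The cultured cells were compared with each other. Between DFAT and DFOG, 2 of the 90 were higher in DFAT and 4 lower, shares close to those of all probe sets, of which 3.7% were higher and 4.31% lower. Of the named genes, 4.86% were higher and 5.5% lower. TYMS lay at 9.85, 9.49 and 9.14 in DFAT and 8.19, 8.34 and 8.32 in DFOG, higher in DFAT by 1.23 ± 0.26 (SE, limma adjusted p = 0.0121). The stress-induced kinase PLK3 was higher by 0.97 ± 0.22 (SE, limma adjusted p = 0.0188). MCM3 lay at 6.71, 5.32 and 5.997 in DFAT and 7.54, 7.33 and 7.22 in DFOG, a difference of -1.40 ± 0.34 (SE, limma adjusted p = 0.0267). PLK2 (-2.18 ± 0.57), CDC42EP3 (-1.22 ± 0.24) and CDC42SE1 (-0.98 ± 0.26) were also lower in DFAT.

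Without DFOG 1 the call of none of these 6 genes was kept, and without DFAT 1 the number of genes lower in DFAT was 12 of the 90. Without DFOG 1, DFOG had 1 sample, so these lost calls do not single out that array. The share of all probe sets without DFAT 1 was not counted. A gene that missed the test was not thereby shown to be equal. For the 54 core genes the difference was below 0 in 42, with a median of -0.25, which was -0.55 without DFAT 1 and -0.043 without DFAT 3. Its 95% interval lay within 2-fold either way for 23 and within 4-fold for 48. The 3 MCM genes that rose in fat cells, for example, differed from DFOG by -0.99 (MCM2), -1.40 (MCM3) and -1.01 (MCM5). CCNB1 differed by -0.59 ± 0.55, with an interval of -1.80 to 0.62.

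The isolated cells gave the most calls. Between MA and GC, 47 of the 90 genes were lower in MA and 15 higher, where 19.7% of all probe sets were lower and 20.7% higher. Of the named genes, 22.6% were lower and 26.8% higher. Of the 54 core genes 38 were lower and 3 higher, with a median of -1.92. The difference, MA minus GC, was -7.53 ± 0.48 (SE, limma adjusted p = 3.48e-07) for TOP2A, -6.65 ± 0.49 (SE, limma adjusted p = 1.11e-06) for CCNB1 and -5.84 ± 0.43 (SE, limma adjusted p = 1.08e-06) for CCND2. UBE2C (-5.53), NUSAP1 (-5.13), CCNB2 (-5.04), CENPF (-5.03) and RRM2 (-4.65) were the next largest. All 7 mitotic kinase and spindle genes and all 3 nucleotide synthesis genes were lower in MA. This comparison shares its MA arrays with DFAT minus MA and its GC arrays with DFOG minus GC.

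Of the 15 genes higher in MA than in GC, 12 have other roles. CDC42EP3 was higher by 3.58 ± 0.22 (SE, limma adjusted p = 2.41e-07) and PLK2 by 1.88 ± 0.51, the latter a call lost with poly-A centring (0.49). Of the core genes, CDKN1A was higher by 2.26 ± 0.26 (SE, limma adjusted p = 3.5e-05), from 9.29 on the highest GC array to 11.35 on the lowest MA array. PRIM2 was higher by 1.96 ± 0.48, a call lost with poly-A centring (0.57). CDC34, higher by 0.70 ± 0.20, was at -0.69 with poly-A centring and not called (limma adjusted p = 0.0565). CDC37L1 (1.37), CDC42EP5 (1.10), CDC42EP1 (1.05) and CDK7 (0.98), which forms the CDK-activating kinase, were also higher as deposited. With poly-A centring they lay below 0, at -0.0205, -0.29, -0.34 and -0.41, but none was called lower. Of the 15, 2 stayed called under that centring, CDC42EP3 and CDKN1A.

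Genes of the same pathways that the symbols did not pick were also examined. Of 22 other mitosis genes, 16 rose from MA to DFAT (72.7%, against 15.7% of all probe sets). None fell, against 16.4% of all probe sets, and the median was 1.90. The nuclear lamin LMNB1 rose by 4.21 ± 0.36, the spindle protein DLGAP5 by 4.09 ± 0.57, the kinase MELK by 3.78 ± 0.51 and the kinetochore protein NUF2 by 3.16 ± 0.58. In granulosa cells none of the 22 rose (against 12.3% of all probe sets) and 6 fell (27.3%, against 12.6%), with a median of -1.004. The falls were led by SPC25 (-2.46 ± 0.18), the centrosomal kinase NEK2 (-1.86 ± 0.40), HMGB2 (-1.82 ± 0.40) and SPAG5 (-1.69 ± 0.46). Between MA and GC 21 of 22 were lower in MA (95.5%, against 19.7% of all probe sets), the most for DLGAP5 (-5.87). DFAT 1 was the highest DFAT array for all 22 and DFAT 3 the lowest for 20.

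Of 17 other replication genes, 7 rose in fat cells (41.2%, against 15.7% of all probe sets) and 1 fell (5.88%, against 16.4%), with a median of 0.31. The origin protein ORC1 rose by 2.26 ± 0.45, the maintenance methyltransferase DNMT1 by 2.13 ± 0.27, the histone chaperone ASF1B by 2.03 ± 0.37 and TIPIN by 1.76 ± 0.22, while RPA3, a subunit of the single-strand binding protein, fell by 1.24 ± 0.20. In granulosa cells none rose and 4 fell (23.5%, against 12.6% of all probe sets). These were ASF1B (-1.34 ± 0.41), ORC3 (-1.02 ± 0.25), ORC4 (-0.75 ± 0.17) and RPA3 (-0.70 ± 0.23).

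Of 20 other regulators, 3 rose in fat cells (15%, against 15.7% of all probe sets and 20.7% of named genes). Another 5 fell (25%, against 16.4% and 20.4%). The rises were those of MYBL2, a transcription factor of late cell cycle genes (2.69 ± 0.37), the CDK1-inhibiting kinase WEE1 (1.98 ± 0.32) and the checkpoint kinase CHEK1 (1.59 ± 0.34). Among the falls were RBL2, the p130 pocket protein of resting cells (-2.15 ± 0.23), the stress gene GADD45B (-1.98 ± 0.28) and CCNG2, a cyclin linked to arrest (-1.52 ± 0.26). In granulosa cells 5 of the 20 fell (25%, against 12.6% of all probe sets and 13.4% of named genes). These were CCNG2 (-2.64 ± 0.29), ANAPC4 (-1.65 ± 0.22), GADD45B (-1.36 ± 0.31), CHEK2 (-1.34 ± 0.39) and RBL2 (-0.82 ± 0.25). Another 2 rose (10%, against 12.3% and 17.3%). CCNC rose by 1.23 ± 0.25, and TFDP2 was higher by 0.80 ± 0.26 as deposited but not above 0 with poly-A centring.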

How the data were processed

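All 12 arrays, in 4 groups of 3, were analysed. The values are log2 expression levels that the authors deposited, made by RMA per the submitters' processing notes, with no version or settings given in the sources used here. RMA subtracts background, quantile-normalizes the arrays and combines the probes of a set. A change is therefore one of share among the RNAs measured, and it is understated for dim genes. Precision is limited by the number of arrays: the median standard error of a change over the 90 genes was 0.25 in fat cells and 0.27 in granulosa cells.

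The table held 24123 probe sets, and 124 controls were left out, which leaves 23999. Names came from the platform annotation, which gave 10069 probe sets 1 symbol and can be old. For 29 of the 90 genes several probe sets exist, and the brightest one over all arrays was used. No sequences are shown, and coordinates were not used here.

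In R 4.3.3 with limma 3.58.1, the 4 group means of every probe set were fitted in 1 model (11 samples, 7 residual degrees of freedom, DFOG replicates 2 and 3 averaged), and 5 contrasts were tested, two-sided, with Benjamini-Hochberg adjustment over all probe sets. The fit was run on simulated data with independent errors across samples and few changed probe sets. That run checks the code and not the error rates in data like these. Figures were drawn in Python 3.11.15 with matplotlib 3.10.9. The members, role lists and other gene lists were chosen with earlier results of these data known, so list counts are descriptions. Named genes are the called members with the largest changes per contrast (up to 12 in each direction for the 2 culture contrasts and up to 8 for the others), up to 4 per role list, and all G1 cyclin and CDK inhibitor members; other members are named with their values as examples. Alternatives changed the treatment of DFOG replicates, the dim filter (under the 25th percentile), the normalization, the probe set rule, array weights, the groups in the fit, a replicate block, the actin covariate and each array in turn. Without DFOG replicates 2 and 3 together was added after seeing the data.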

Additional observations from a re-analysis of the deposited data

Results flagged for a closer look

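The change in fat cells, DFAT minus MA, and the change in granulosa cells, DFOG minus GC, differed by a direct limma test of their difference (adjusted p under 0.05 over all probe sets) for 39 of the 90 genes. Values below are that difference on the log2 scale, fat cells minus granulosa cells. It was above 0 for 32 genes. Among the G1 group these were CCND2 (5.60) and CDK2 (2.05). In the S, G2 and M cyclins and CDC25 phosphatases they were CCNB1 (6.05), CCNB2 (4.23) and CDC25B (2.53). For the CDK inhibitors the test passed for CDKN3 (2.88) and CDKN2D (1.003). Among origin licensing and firing these were MCM2 (2.44), MCM5 (2.04), CDC45 (1.80) and MCM3 (1.75). In polymerases and clamp loaders they were RFC3 (1.71), POLE2 (1.68), RFC5 (1.58) and POLD3 (0.92). For nucleotide synthesis the test passed for TYMS (4.46), RRM2 (3.91) and RRM1 (1.61). Among centromere and checkpoint genes these were CENPH (4.26), CENPF (4.09), CDC20 (3.05), CENPT (2.06), CENPI (2.03) and CENPO (2.03). In mitotic kinases and spindle genes they were TOP2A (6.71), NUSAP1 (4.63), AURKA (3.17), BIRC5 (3.11), PLK1 (2.65) and AURKB (2.57). For ubiquitin transfer the test passed for UBE2C (4.92). The transport kinesin KIF3A was at 1.77. The difference was below 0 for 7 genes. CDC42EP3 (-4.80) and PLK2 (-4.07) kept that direction with poly-A centring of the arrays, whereas CDC34 (-1.34), CDKN1A (-1.29), CDC37L1 (-1.08), CDC42EP1 (-0.98) and CDK2AP2 (-0.89) were above 0 under that centring. For most of the 32, the fat cell change was upward and the granulosa cell change was small or downward, as the plot of the changes in the 2 cell types shows.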

How the results depend on the processing

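The called genes, and all G1 cyclin and CDK inhibitor members called or not, were followed under 22 other settings. Of their values 3878 stayed on their side of the threshold, 237 lost and 28 gained a call, and 17 of called genes changed sign. Other genes without a call were not followed here, so their gains are not among the 28. Sign changes of genes without a call were not counted. Calls present under every setting were 17 of 40 for DFAT minus MA, 7 of 23 for DFOG minus GC, 24 of 39 for the difference between the changes, 0 of 6 for DFAT minus DFOG (each of these 6 lost its call without DFOG 1) and 40 of 62 for MA minus GC. Centring on the poly-A controls gave 57 higher and 2 lower for DFAT minus MA and 5 and 56 for DFOG minus GC. For the difference it gave 72 and 2, for DFAT minus DFOG 1 and 2, and for MA minus GC 2 and 78. Of all 23999 probe sets, 7296 were then higher and 1300 lower for DFAT minus MA, and 1049 and 9622 for DFOG minus GC. The difference had 16639 and 701, DFAT minus DFOG 645 and 668, and MA minus GC 1107 and 19324. Most probe sets thus moved the same way in the difference and in MA minus GC. The centring turned CDK9 (0.047) in DFAT minus MA. In the difference it turned CDC34 (0.13), CDC37L1 (0.39), CDC42EP1 (0.49), CDK2AP2 (0.58) and CDKN1A (0.18). In MA minus GC it turned CDC34 (-0.69), CDC37L1 (-0.0205), CDC42 (-0.72), CDC42EP1 (-0.34), CDC42EP2 (-0.91), CDC42EP5 (-0.29), CDK2AP2 (-0.67), CDK5RAP3 (-0.44), CDK7 (-0.41), CDK9 (-0.84) and PLK3 (-0.70). With DFOG replicates 2 and 3 as separate samples, 20 genes were lower in DFOG than GC and 4 higher in DFAT than DFOG. Averaging the probe sets of each gene left 0 higher in DFAT than DFOG, array weights gave 13 lower in DFAT than MA, the groups compared alone gave 1 higher and 0 lower for DFAT minus DFOG, and the actin covariate gave 17 higher for DFAT minus MA. Leaving out 1 array at a time gave 7 (without DFOG 1) to 20 (without DFAT 1) lower for DFOG minus GC, 4 to 9 lower for the difference, and 1 to 3 higher and 0 to 12 lower for DFAT minus DFOG. Without DFOG replicates 2 and 3 together, a setting chosen after seeing the data, 5 were lower for DFOG minus GC, and 0 higher and 1 lower for DFAT minus DFOG. Without DFOG 1, and without DFOG replicates 2 and 3 together, DFOG had 1 sample. Apart from the number of samples, the cause of these changes was not tested. Among these settings, counts over all probe sets are given for poly-A centring only. Changes in the other counts may thus not be particular to the 90 genes.

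The replicate numbers were not taken to pair samples. The labels number biological replicates but do not say whether a number is shared across groups. With DFOG 2 and 3 as 1 sample, the granulosa cells also hold only 2 pairs. Deviations of same-numbered arrays correlated at 0.0999, 0.168 and 0.126 between MA and DFAT. Between GC and DFOG they correlated at 0.604, 0.514 and 0.355. Each MA and GC array correlated best with the cultured array of its own number, a hint from the data and not from the design. The best match of each DFAT and DFOG array was not examined. As DFOG 2 and 3 were nearly identical, telling their matches with GC 2 and GC 3 apart says little. With the number as a replicate block, 36 genes were higher and 8 lower for DFAT minus MA, 10 and 15 for DFOG minus GC, 36 and 8 for the difference, 2 and 5 for DFAT minus DFOG and 16 and 45 for MA minus GC. In DFOG minus GC the block added CCND2, CDC5L, CDKN2C and CENPF and removed KIF3A and POLD2. The shares of all probe sets under the block were not counted.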
